A study of Mus musculus with 2 samples.

Results

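The genes of the CD3 complex, Cd3d, Cd3e, Cd3g and Cd247, were examined for accessible chromatin in mouse thymus. They were taken by symbol and are 4 of the 21911 protein-coding genes of the annotation. The assay was DNase-seq, in which DNase I cuts DNA that is not covered by nucleosomes, so that clusters of cuts mark open regulatory DNA. The samples were 2 libraries, replicate 1 and replicate 2, each from thymus tissue of its own female B6CASTF1/J mouse aged 25 days. This strain name stands for F1 hybrids of C57BL/6J and CAST mice, so both animals carried 1 genome of each parent strain. There was no treatment, genotype contrast or control group, so each value is given per library with the spread between the animals, and no test between conditions was possible.

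CD3 chains are the signalling subunits of the T cell receptor. The receptor's own α and β chains bind peptide on MHC molecules but have almost no tail inside the cell, and the signal is carried by the CD3δ, CD3ε and CD3γ chains and by the ζ chain that Cd247 encodes. Each of these tails carries phosphorylation motifs called ITAMs, which the kinase Lck phosphorylates and to which the kinase Zap70 then binds. Developing T cells, which make up most of the thymus, assemble the complex first with the pre-T cell receptor and later with the mature receptor. Cd3d, Cd3e and Cd3g lie side by side in one small cluster in mammals, whereas Cd247 lies on another chromosome.

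On mm10, Cd3g (ENSMUSG00000002033) lies on the minus strand at chr9:44969572-44980431 and Cd3d (ENSMUSG00000032094) on the plus strand at chr9:44981786-44987339. Their starts are 1355 bp apart and transcription runs outward from that gap. Cd3e (ENSMUSG00000032093) lies on the minus strand at chr9:44998740-45009627, and its 3′ end faces that of Cd3d across 11.4 kb. Because the 3 territories overlap, they were counted once as a single span of 60.1 kb, chr9:44959572-45019627, which is the cluster with 10 kb on each side. Cd247 (ENSMUSG00000005763) lies on the plus strand at chr1:165788681-165877277, and with 10 kb on each side its span is 108.6 kb, chr1:165778681-165887277. The span of the chromosome 9 cluster also holds the start of Ube4a, a ubiquitin ligase gene, and the Cd247 span overlaps the body of Pou2f1, which encodes the transcription factor Oct-1.

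The peaks at the 4 gene starts and 2 further open sites are shown first, since the results below refer to their bases. Letters are the GRCm38 (mm10) reference, which is the C57BL/6J sequence, and the CAST alleles of these animals may differ from it. Capitals mark bases that lay in a footprint of both libraries, where a footprint is a short stretch of an open site with fewer cuts than the bases around it. The promoters are printed 5′ to 3′ on the strand of their gene and end at the last base before the gene start, and the other sites are on the plus strand.
Cd3g promoter, chr9:44980432-44980540, minus strand: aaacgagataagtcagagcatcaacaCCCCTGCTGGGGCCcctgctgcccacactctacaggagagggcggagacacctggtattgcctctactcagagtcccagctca
Cd3d promoter, chr9:44981661-44981785, plus strand: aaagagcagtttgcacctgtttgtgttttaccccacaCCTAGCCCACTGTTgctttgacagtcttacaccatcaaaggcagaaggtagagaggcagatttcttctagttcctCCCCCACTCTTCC
Cd3e promoter, chr9:45009628-45009760, minus strand: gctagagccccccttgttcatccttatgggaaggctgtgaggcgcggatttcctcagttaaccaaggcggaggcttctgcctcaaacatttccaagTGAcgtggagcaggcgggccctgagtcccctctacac
Cd247 promoter, chr1:165788601-165788680, plus strand: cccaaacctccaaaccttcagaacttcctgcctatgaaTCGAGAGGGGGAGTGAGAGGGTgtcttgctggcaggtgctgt
Site between the 3′ ends of Cd3d and Cd3e, chr9:44996681-44996920: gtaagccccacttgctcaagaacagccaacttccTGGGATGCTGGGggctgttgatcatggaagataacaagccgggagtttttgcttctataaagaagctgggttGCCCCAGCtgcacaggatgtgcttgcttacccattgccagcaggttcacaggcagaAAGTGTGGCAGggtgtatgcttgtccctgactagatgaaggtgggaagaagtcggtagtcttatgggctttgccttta
Cd247 intron 1 site, chr1:165802021-165802260: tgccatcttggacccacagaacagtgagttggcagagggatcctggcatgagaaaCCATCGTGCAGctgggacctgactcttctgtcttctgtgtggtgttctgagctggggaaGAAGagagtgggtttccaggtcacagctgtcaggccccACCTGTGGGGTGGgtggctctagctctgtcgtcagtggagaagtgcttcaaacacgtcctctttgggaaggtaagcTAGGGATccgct
The first 4 were chosen because they are the promoters of the members. The others show a site whose footprints were all shared between the animals and the site of Cd247 with the densest peak in replicate 2.

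The libraries differed in yield. Replicate 1 had 127552 peaks and 363775 footprints, and replicate 2 had 67270 peaks and 203939 footprints, a ratio of 1.90 for peaks and 1.78 for footprints. Bases with a false discovery rate (FDR) below 0.05 for their cut rate came to 44.8 Mb in replicate 1 and 23.2 Mb in replicate 2, a ratio of 1.94. The depth behind each call is unknown, since no source used here states read totals, and a peak missing from replicate 2 was not detected there rather than shown to be closed. In whole tissue, a site open in few cells and a site that opens seldom in every cell cannot be told apart. As a base for the marker counts, 61.6% of all protein-coding genes had a promoter peak in replicate 1 and 55.1% in replicate 2. Among marker genes outside the complex, the T-lineage genes Lck, Zap70, Tcf7 and Bcl11b had a promoter peak in both libraries. Markers of other cells were open in part, with 3 of 6 B cell genes in replicate 1 and 1 of 6 in replicate 2, 3 of 6 myeloid genes in both, 3 of 6 and 2 of 6 thymic epithelial genes, 5 of 6 and 4 of 6 endothelial and stromal genes, 2 of 6 erythroid genes in both, and 4 of 6 natural killer genes in both. Their part in the values below was not tested.

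In both animals, all 4 CD3 genes were open at the promoter, meaning that a peak lay less than 1 kb from the start. Over all protein-coding genes the share with such a peak was 61.6% in replicate 1 and 55.1% in replicate 2, so an open promoter was the commoner state and 4 of 4 alone says little about these genes. In each member a peak covered the start itself, and its strength differed among them. Strength is given as the authors' density per peak, a signal value whose scaling is not stated, and is therefore read by its rank within a library's own list.

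Cd3g, which encodes CD3γ, had the densest promoter peak of the complex. Its density was 16.1 in replicate 1 and 14.8 in replicate 2, above 96.4% and 96.8% of the peaks of the same list. The peak over the Cd3e start had a density of 7.90 and 8.31, above 91.4% and 91.9% of peaks. CD3ε, its product, pairs with both CD3δ and CD3γ. The peak over the Cd247 start had a density of 6.77 and 7.37, above 89.9% and 90.7% of peaks. Cd3d had the weakest of the 4, with 4.09 in replicate 1 and 3.18 in replicate 2, above 84.2% and 79.4% of peaks. The order Cd3g, Cd3e, Cd247, Cd3d was the same in both animals, with Cd3e and Cd247 close together.

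Set beside other open promoters, these peaks ranked lower than they did among all peaks. The densest promoter peak of a gene had a median density of 9.42 over the 13507 open promoters of replicate 1 and 5.56 over the 12065 of replicate 2. The Cd3g peak was above 68.7% of them in replicate 1 and 83.3% in replicate 2, and the Cd3e peak was above 45.3% and 63.4%. The Cd247 peak was above 41.5% and 59.4%, and the Cd3d peak was above 32.2% and 34.2%. Cd3d thus stood below the median in both animals and Cd3g above it in both, while Cd3e and Cd247 were below it in replicate 1 and above it in replicate 2.

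**Figure D1:**
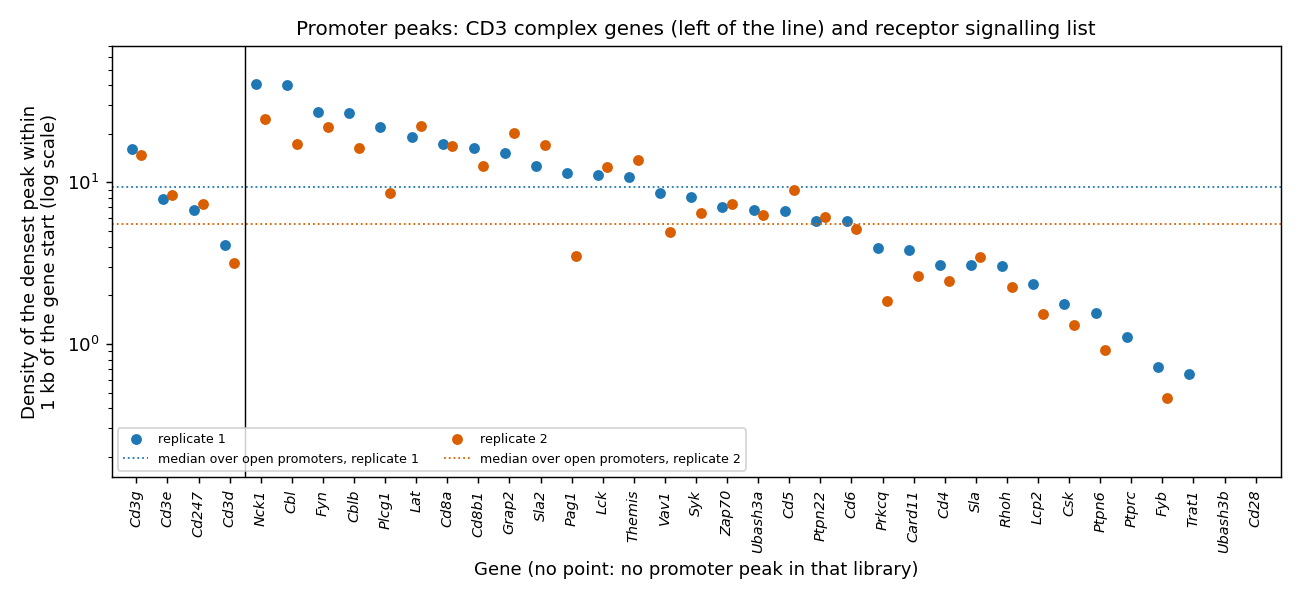
Density of the densest peak within 1 kb of the gene start (log scale, authors' units) for the 4 CD3 complex genes, left of the vertical line, and 33 of the 34 genes of the receptor signalling list (no point where no promoter peak was called, as at Ubash3b and Cd28 in both libraries), in replicate 1 (blue) and replicate 2 (orange), with dotted lines at each library's median over open promoters. Cd3g lies above both lines at 16.1 and 14.8, and Cd3d below both at 4.09 and 3.18.

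Further peaks flanked each start. Replicate 1 had a weak peak of density 1.25 between the divergent starts of Cd3g and Cd3d, at -454 bp from the Cd3d start, which was not called in replicate 2. Replicate 2 had a weak peak of density 0.732 about 450 bp inside Cd3d, which was not called in replicate 1, although replicate 1 had significant cutting over those bases. A second shared peak lay at -1064 bp from the Cd3e start, upstream of it, with a density of 6.46 and 3.56, and another about 820 bp inside Cd247 with 3.57 and 1.70. Footprints within 1 kb of the start numbered 15 in replicate 1 and 12 in replicate 2 for Cd3d, 13 and 6 for Cd3e, 12 and 14 for Cd247, and 7 and 8 for Cd3g. Over all open promoters the median was 8 in replicate 1 and 7 in replicate 2. Cd3g, with the densest peak, therefore had the fewest promoter footprints of the members in replicate 1, and Cd3e had fewer than Cd3g in replicate 2.

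The promoters of all 4 genes were poor in CpG dinucleotides. In RefSeq promoter windows (GRCm38) of 300 bases around the start, Cd3d held 1 CpG, Cd247 held 3, Cd3g held 4 and Cd3e held 8. The observed over expected CpG ratio was 0.0774 for Cd3d, 0.183 for Cd3g, 0.21 for Cd247 and 0.333 for Cd3e. The median was 0.78 over the 9349 matched promoters open in both libraries and 0.598 over all 16522 matched promoters. The members' ratios were above those of 8.05%, 19.8%, 22.6% and 33.0% of all matched promoters, so all 4 lay in the lower part of the range. GC content was 42.3% for Cd3d, 43.7% for Cd247, 54.0% for Cd3g and 56.7% for Cd3e, with a median of 57.0% over all promoters.

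Short motifs were matched in the same windows on both strands, as a description of the letters and not of binding. TATAAA, the TATA box core, was in none of the 4 windows and in 12.9% of all promoters. TGTGGT, the core that RUNX factors bind, was in none of the 4 and in 14.8% of all promoters. CACCTG, an E-box of the kind that E proteins bind, was in all 4 windows, with 2 matches in Cd3g and 1 in each of the others, and in 19.3% of all promoters. AGGAAG, an ETS core, had 2 matches each in Cd3d, Cd3e and Cd247 and none in Cd3g, and was in 34.1% of all promoters. CTTTGA, a TCF/LEF core, had 2 matches in Cd3d and 1 in Cd247 and was in 14.8% of promoters, and TGACGT, the core of the cAMP response element, had 1 match in Cd3e and was in 8.99%. CCGGAAG (12.3% of promoters) and the CTCF consensus (2.38%) were in none of the 4. In the printed Cd3e promoter the TGACGT match has 3 of its 6 bases in a footprint of both animals, and the overlapping E-box CAAGTG has 2. In the printed Cd3g and Cd3d promoters the CACCTG matches lay outside the shared footprints, as did the Cd247 match, which reads CAGGTG on the printed strand.

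The Cd3g, Cd3d and Cd3e span was dense in open sites in both animals. It held 30 peaks in replicate 1 and 21 in replicate 2 (25.5 ± 6.36, SD, n = 2), which covered 11.6% and 6.99% of it (9.30% ± 3.27). Footprints numbered 110 and 76 (93.0 ± 24.0), and 13180 and 8667 bases had an FDR below 0.05 (mean 10920 ± 3191). Among 3236 other protein-coding territories within 20% of its length, the median was 5 peaks in replicate 1 and 3 in replicate 2. The span had more peaks than 99.4% of them in replicate 1 and 99.6% in replicate 2. The median number of footprints was 18 and 10, and the span exceeded 99.8% and 99.9% of territories. The median number of significant bases was 2214 and 1208, and the span exceeded 99.7% and 99.8%. The span holds 4 gene starts, counting Ube4a, whereas a territory is built on 1 gene, and how far this sets the rank was not tested. Neighbouring territories share peaks, so these percentages are descriptions. Replicate 1 had 1.43 times the peaks of replicate 2 in the span, less than the 1.90 over the genome.

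Each gene's own territory gave 16 peaks in replicate 1 and 11 in replicate 2 for Cd3g, and 14 and 10 for both Cd3d and Cd3e. Footprints were 58 and 43 for Cd3g, 49 and 38 for Cd3d, and 52 and 33 for Cd3e. These counts overlap, because a peak between Cd3g and Cd3d belongs to both territories.

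Joined over both libraries, the peaks of the span formed 31 sites, of which 20 had a peak in both animals, 10 in replicate 1 only and 1 in replicate 2 only. Of replicate 1's peaks 66.7% were shared, against 46.9% over the genome, and of replicate 2's peaks 95.2%, against 88.8%. The densities of the 20 shared sites kept much the same order in both animals, with a Spearman rho of 0.91, given as a description since the sites come from the same libraries. The sites found in 1 library were weak, with densities from 0.508 to 1.597 in replicate 1 and 0.732 in replicate 2. The densest of them lay in the 3′ UTR of Cd3g (chr9:44969581-44969780) with 1.597 in replicate 1, followed by an intron of Cd3d (chr9:44984444-44984660) with 1.41 in the same library. Of the 10 sites of replicate 1 alone, 1 had bases of FDR below 0.05 in replicate 2.

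The densest site of the span belonged to no CD3 gene. It was the promoter of Ube4a (chr9:44965521-44965720), with a density of 44.4 in replicate 1 and 17.9 in replicate 2, above 99.9% and 97.9% of peaks. A site between Ube4a and Cd3g (chr9:44966901-44967080) had a density of 14.3 in replicate 1, above 95.7% of peaks, and 2.51 in replicate 2, above 75.5%. It held 1 match to the CTCF consensus, which was found in 12.8% of all peaks of replicate 1 and 7.76% of those of replicate 2.

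Within Cd3g, Cd3d and Cd3e, the densest site other than a promoter lay in the 3′ UTR of Cd3d, at chr9:44986501-44986800, 4.87 kb downstream of the start. Its density was 8.80 in replicate 1 and 12.8 in replicate 2, above 92.3% and 95.8% of peaks, and in both animals it outranked the Cd3d promoter. Its 200 central bases held 2 matches to TGTGGT, a motif in 19.2% and 19.1% of all peaks, and 1 to CCGGAAG, an ETS motif in 4.10% and 6.35%. A T cell enhancer at the 3′ end of the human CD3D gene is known. That background does not show that the mouse site acts as one. Weaker shared sites lay beside it, in an exon of Cd3d (chr9:44985801-44986160, 2.33 and 1.73) and further along the 3′ UTR (chr9:44986963-44987240, 1.25 and 0.750).

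Between the facing 3′ ends of Cd3d and Cd3e lay the intergenic site printed above. Its density was 3.48 in replicate 1 and 4.15 in replicate 2, above 81.8% and 83.4% of peaks. All 3 footprints of replicate 1 overlapped all 3 of replicate 2, and the central one covers 4 of the 6 bases of a CAGCTG match. CAGCTG, another E-box of the family CANNTG, was in 16.9% and 19.6% of all peaks. Around Cd3e itself, an intron site 1.13 kb inside the gene (chr9:45008381-45008620) had 4.67 and 3.43, with 5 footprints in each library. Far upstream, a site at -6.42 kb from the start (chr9:45015941-45016160) had 3.09 and 4.19. Shared sites were thus found before, inside and beyond Cd3e in both animals.

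**Figure D2:**
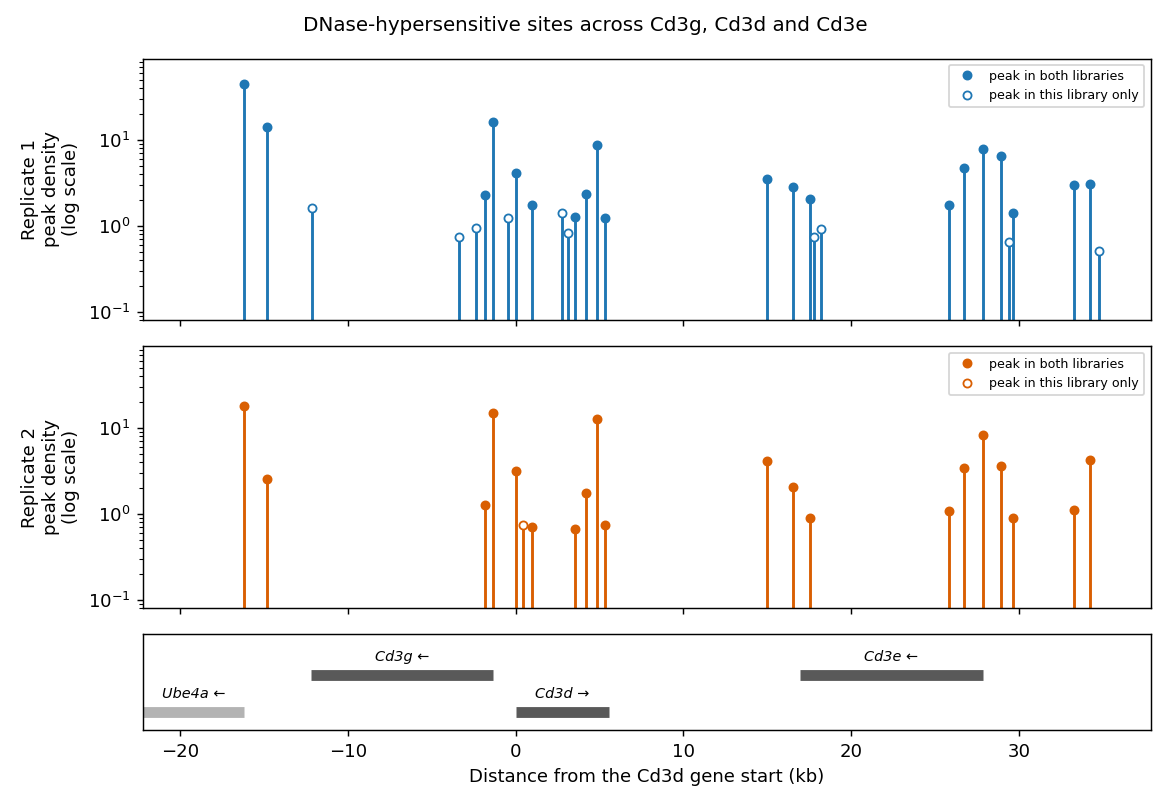
Peak density (log scale, authors' units) of each site across the Cd3g, Cd3d and Cd3e span by distance from the Cd3d gene start in kb, for replicate 1 (top) and replicate 2 (middle), with gene bodies and direction below. Filled points are sites with a peak in both libraries and open points sites of that library alone. The tallest point on the left is the Ube4a promoter at 44.4 and 17.9, and the point near the right end of Cd3d is its 3′ UTR site at 8.80 and 12.8.

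In Cd247 replicate 2 had more peaks than replicate 1. Its span held 34 peaks in replicate 1 and 46 in replicate 2 (40.0 ± 8.49, SD, n = 2), a ratio of 0.739 where the genome gave 1.90. Bases with an FDR below 0.05 were 13719 and 18672 (mean 16200 ± 3502), again more in replicate 2. Peaks covered 6.76% of the span in replicate 1 and 9.76% in replicate 2 (8.26% ± 2.12). Footprints did not turn round, with 131 in replicate 1 and 114 in replicate 2 (122.5 ± 12.0).

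Against 1621 protein-coding territories of like length, Cd247 was open in both animals. The median was 8 peaks in replicate 1 and 4 in replicate 2, and Cd247 had more than 98.2% and 100% of them. Median footprints were 24 and 13, which Cd247 exceeded in 99.1% and 99.9% of cases. Of 2511 protein-coding genes with at least 20 peaks summed over both libraries, 110 (4.38%) had more peaks in replicate 2 than in replicate 1.

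**Figure D3:**
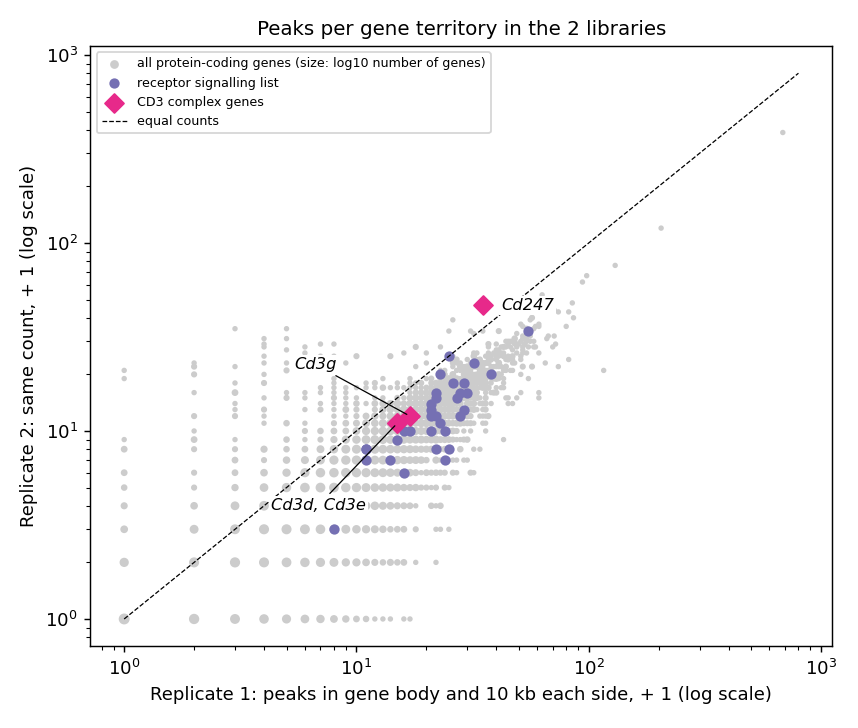
Peaks per gene territory (gene body and 10 kb each side, plus 1, log scales) in replicate 1 on the x axis and replicate 2 on the y axis, for all protein-coding genes (grey, point size by number of genes), the receptor signalling list (violet) and the CD3 complex genes (pink diamonds). Cd247 lies above the dashed line of equal counts at 34 and 46 peaks, and the other 3 members lie below it, at 16 and 11 for Cd3g and at 14 and 10 for Cd3d and Cd3e.

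The surplus of replicate 2 in peak number lay in 1 stretch of 10.9 kb in the 3′ part of Cd247, chr1:165851301-165862210. Its limits were drawn after the values were seen, from the first to last of its peaks with a density below 0.25. In this stretch replicate 1 had 5 peaks and replicate 2 had 22. Of these, 1 in replicate 1 and 20 in replicate 2 had a density below 0.25. Outside the stretch the span had 29 peaks in replicate 1 and 24 in replicate 2. The limits rest on density alone, and strong significance in replicate 2 began further upstream. Sites 60.8, 61.4, 61.5 and 62.2 kb from the start had 188, 137, 100 and 240 bases at an FDR of at most 0.001 there. In replicate 1 each of these sites had 0 such bases. The site at 62.2 kb was a peak of replicate 2 alone, with a density of 0.498. Peak densities in the stretch ran from 0.238 to 8.70 in replicate 1 with a median of 0.344, and from 0.108 to 2.48 in replicate 2 with a median of 0.198. The medians over the rest of the span were 2.56 and 1.66. By density, the many peaks of replicate 2 there were thus weak ones, near the bottom of its list, of which only 5.80% had a density below 0.25. The FDR gave some of them another order. Replicate 2 peaks at 64.5, 67.7 and 68.9 kb, with densities of 0.234, 0.228 and 0.234, had lowest FDRs of 4.6e-07, 1.1e-06 and 1.2e-06. Its denser peaks at 23.8 and 24.3 kb, with 0.684 and 0.894, had 0.0044 and 0.0025. Other low peaks of the stretch, such as those at 67.5 and 73.5 kb, had 0 bases at an FDR of at most 0.001.

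The low peaks of replicate 2 lay along the whole stretch. Peaks covered 1011 bp of it in replicate 1 (9.27%) and 5455 bp in replicate 2. Bases with an FDR below 0.05 made up 15.2% of the stretch in replicate 1 and 74.8% in replicate 2. Bases with an FDR of at most 0.001 made up 13.8% and 43.7%. Of the 7 Cd247 exons in the stretch, merged from chosen transcripts of the gene, a peak overlapped 0 in replicate 1 and 6 in replicate 2. An overlap of 1 bp counted, and how far the coverage of the stretch sets this count was not tested. Footprints there numbered 14 and 26. Such runs were not particular to Cd247. Over the genome, 9 windows of 10 kb in replicate 1 and 77 in replicate 2 held at least 10 peaks below 0.25. Peaks below 0.25 were commoner in replicate 1, with 12780 of its 127552 peaks, against 3903 of the 67270 of replicate 2. Of these low peaks, 114 in replicate 1 and 1011 in replicate 2 lay in those windows. Because the scaling of the density is not stated, 0.25 may not mark the same signal in both libraries. With peaks below 0.25 left out, an alternative chosen after the data were seen, Cd247 had 33 peaks in replicate 1 and 26 in replicate 2, and was above 98.2% and 99.6% of like-length territories, whose medians were 7 and 4. The cause of the run in replicate 2 was not tested.

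The peaks of the Cd247 span formed 53 sites, of which 26 had a peak in both animals, 7 in replicate 1 only and 20 in replicate 2 only. Of replicate 1's peaks 79.4% were shared, against 46.9% over the genome, and of replicate 2's peaks 56.5%, against 88.8%. The 20 sites of replicate 2 alone had densities from 0.108 to 0.684 with a median of 0.195, and 1 of them had bases of FDR below 0.05 in replicate 1. The densest of the 7 sites of replicate 1 alone lay 8.63 kb upstream of the gene (chr1:165779961-165780140) with a density of 2.56. The next, with 1.21, lay in a UTR exon of Pou2f1 (chr1:165865235-165865396). Of the 7 sites, 2 had bases of FDR below 0.05 in replicate 2. They were intron sites at 60.8 and 61.4 kb from the Cd247 start. Their lowest FDR was 4.7e-11 and 5.84e-19 in replicate 2. In replicate 1, which had the peaks, it was 0.0117 and 0.00817. Over the 26 shared sites Spearman's rho between the densities was 0.852, as a description.

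The 6 sites of Cd247 with the best mean rank, promoter sites apart, lay in its long first intron, in groups that both animals shared. The first pair was 13.5 and 14.5 kb downstream of the start. The printed intron 1 site, at 13.5 kb, had a density of 5.94 in replicate 1 and 9.80 in replicate 2, above 88.5% and 93.6% of peaks. Its neighbour at 14.5 kb (chr1:165803101-165803320) had 7.43 and 9.48, above 90.8% and 93.3%. In replicate 2 both were denser than the promoter of the gene, and in replicate 1 the second was.

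Another group of 4 sites lay between 55.1 and 56.9 kb downstream, of which 3 are described here, without the densest. The site at 55.1 kb (chr1:165843701-165843880) had a density of 5.55 in replicate 1 and 7.24 in replicate 2, above 87.9% and 90.5% of peaks. The site at 56.1 kb (chr1:165844681-165844900) had 5.83 and 4.40, above 88.4% and 84.3%, and the site at 56.9 kb (chr1:165845501-165845720) had 8.49 and 5.30, above 92.0% and 86.8%. All 4 sites of the group were called in both animals. Outside these groups, an intron site at 65.2 kb (chr1:165853781-165854020) lay inside the 3′ stretch described above. It had a density of 8.70 in replicate 1 and 2.48 in replicate 2, above 92.2% and 75.2% of peaks.

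The printed intron 1 site held 4 CpG dinucleotides, an observed over expected ratio of 0.221, close to the 0.21 of the Cd247 promoter window. All 4 of its footprints in replicate 1 overlapped one of the 8 in replicate 2, and 35 of its bases lay in footprints of both. The capitals cover 5 of the 6 bases of a CACCTG match and 3 of the 6 of a CAGCTG match. Another CAGCTG match and a TGTGGT match lie outside the capitals.

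**Figure D4:**
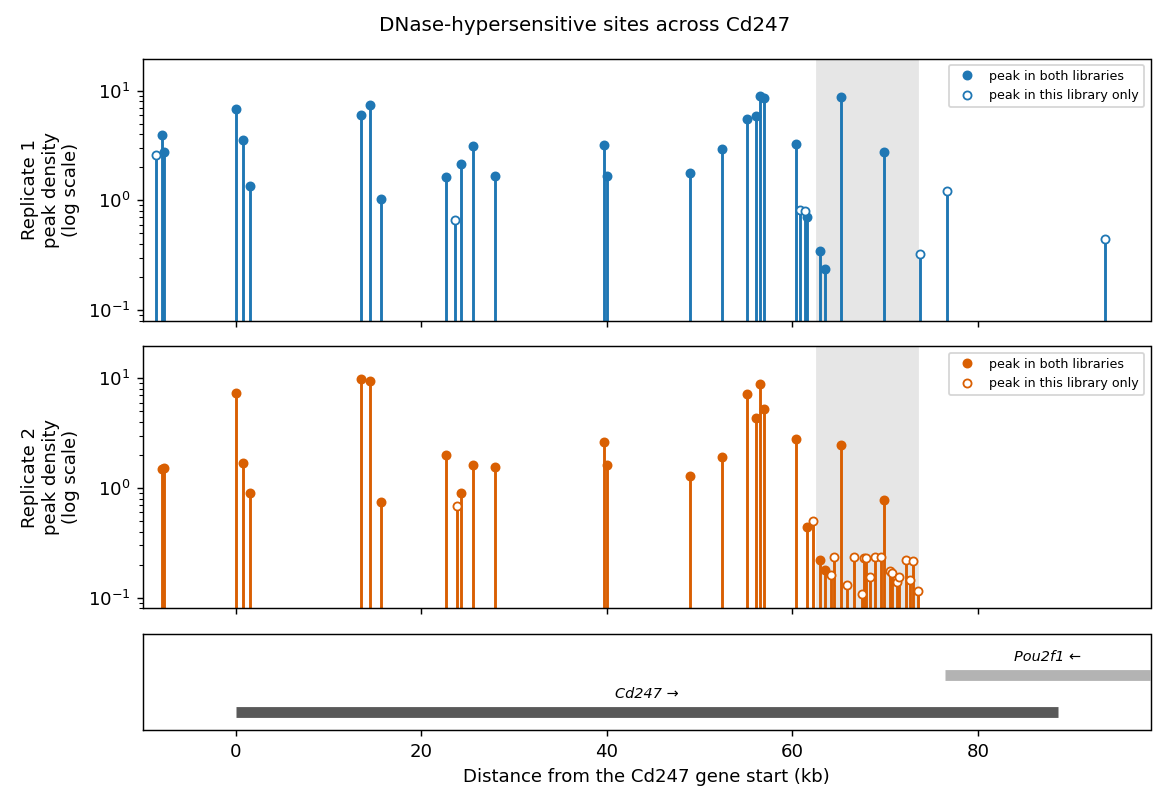
Peak density (log scale, authors' units) of each site across the Cd247 span by distance from the Cd247 gene start in kb, for replicate 1 (top) and replicate 2 (middle), with gene bodies and direction below. Filled points are sites with a peak in both libraries, open points sites of that library alone, and the grey band the 10.9 kb stretch with 5 peaks in replicate 1 and 22 in replicate 2. Outside the band the tall points fall at the same places in both animals, near the start and at 13.5, 14.5 and 55.1 to 56.9 kb.

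Over the shared sites, motif matches were counted in the central 200 bases. TGTGGT was in 12 of 26 shared sites of Cd247 (46.2%) and 4 of 20 of the Cd3g, Cd3d and Cd3e span, against 19.2% of all peaks of replicate 1 and 19.1% of replicate 2. CACCTG was in 42.3% and 35.0%, against 23.9% and 26.3% of all peaks. AACNGNC, the MYB pattern, was in 26.9% of the Cd247 sites and 45.0% of the others, against 24.3% and 24.9%. AGGAAG was in 23.1% and 25.0%, against 33.5% and 36.8%. These shares are of sites called in both libraries, whereas the background is all peaks of a list, shared or not. Only some of the motifs searched are given. The counts are small, many sites share a gene, and no test was made of them. The letters CANNTG include those of CACCTG and CAGCTG, so these 3 motifs count some of the same bases.

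A smaller share of footprints than of peaks overlapped between the animals. In the Cd3g, Cd3d and Cd3e span 36.4% of replicate 1's footprints overlapped one of replicate 2, and 55.3% of replicate 2's overlapped one of replicate 1. Over the genome the shares were 35.7% and 67.9%. In the Cd247 span they were 45.8% and 52.6%. At the promoter peaks themselves the overlap also varied: all 4 footprints at the Cd3g start were shared in both libraries, 3 at the Cd3d start and 3 at the Cd247 start, and 1 at the Cd3e start. In the printed promoters, 27 bases upstream of the start lay in a footprint of both animals for Cd3d, 22 for Cd247, 14 for Cd3g and 3 for Cd3e.

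Of 34 other genes of receptor signalling, 32 had a promoter peak in replicate 1 and 30 in replicate 2, beside the 61.6% and 55.1% of all protein-coding genes. The list's median number of territory peaks was 21 and 11. The medians were 15.0 and 10.5 for the 4 members and 4 and 2 for all protein-coding genes. Counts here were not matched for territory length, which was 25.55 kb for Cd3d, 108.6 kb for Cd247 and 235.5 kb for Themis. The overlapping territories of Cd3g, Cd3d and Cd3e entered the members' median separately. By role, all 7 kinases were open in both animals. Of 12 adaptors and effectors, 12 were open in replicate 1 and 11 in replicate 2, where Trat1 had no promoter peak. Of 9 inhibitors and phosphatases, 8 and 7 were open, with Ubash3b closed in both and Ptprc, which encodes CD45, in replicate 2. Of 6 co-receptors and co-stimulators, 5 were open in both, and Cd28 was not.

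Within that list, Cd8b1, the CD8 co-receptor β chain, had the most territory peaks with 54 in replicate 1 and 33 in replicate 2, followed by Sla, an adaptor that lowers receptor levels, with 37 and 19. The fewest were 6 and 3 at Trat1 and 7 and 2 at Nck1. Of the 34 genes, 2 had more peaks than Cd247 in replicate 1 and 0 had more in replicate 2, again without matching for length. Replicate 1 had more peaks than replicate 2 in 33 of the 34 genes, and 0 of the 34 had more in replicate 2, as Cd247 had. Promoter density was 11.2 and 12.4 at Lck and 7.09 and 7.38 at Zap70, beside 7.90 and 8.31 at Cd3e and 6.77 and 7.37 at Cd247.

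The other ITAM adaptor genes of the list serve receptors of other cells. Of these 4 genes, 2 had a promoter peak in each library, beside 61.6% and 55.1% of all protein-coding genes. With 4 genes, the count does not set them apart from those shares. Fcer1g, of Fc receptors, and Cd79a, of the B cell receptor, had no promoter peak in either animal. Tyrobp, of natural killer and myeloid receptors, had one with a density of 2.17 in replicate 1 and 2.06 in replicate 2, and Cd79b, of the B cell receptor, had one of 1.13 and 1.02. Both were weaker in each animal than the peak at any of the 4 CD3 gene starts, of which Cd3d was the lowest at 4.09 and 3.18. Fcer1g had 3 and 2 territory peaks and Cd79a 11 and 8, so a closed promoter did not mean an empty territory.

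By peaks and footprints in both libraries, the territories of like length nearest to the Cd3g, Cd3d and Cd3e span were those of Mef2d, Rgs10, Rara, Slc43a2 and Rhof. The Euclidean distance over 4 values, as log2(value + 1), was 0.220 for Mef2d, with 28 peaks in replicate 1 and 19 in replicate 2, and 0.447 for Rhof, with 30 and 16. Nearest to Cd247 were Itpkb, Ppp1r16b, Smyd1, Sema4d and Poc1b, at distances from 0.566 for Itpkb, with 40 and 33 peaks, to 0.925 for Poc1b, with 42 and 27. None of these 5 had more peaks in replicate 2.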

How the data were processed

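Peak lists of 2 lengths, 1 footprint list and 1 false discovery rate (FDR) file were deposited per library. Per the labels, positions are on mm10, and per the deposited notes each file was made from the filtered reads of 1 library, without pooling. Which aligner and callers were used is not given in the sources used here. The value per peak is the authors' signal density, with unstated scaling. The deposited FDR, a q-value per run of bases, is listed only below 0.05. Deposited footprints carried 1 constant as their value, so only positions were used.

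The longer peak list of each library was the main one. Replicates are numbered as biological replicates in the labels. Gene models were GENCODE M21 on GRCm38, without duplicate symbols and mitochondrial genes; all peaks lay within the reference lengths on 21 of 21 chromosomes of each library, and 4 of 4 RefSeq promoter windows of the members equalled the genome. A territory reached 10 kb beyond both gene ends, a promoter 1 kb on each side of the start, and any overlap of 1 bp counted. Sites were unions of overlapping peaks, placed by midpoint as promoter, exon, intron or intergenic. Named were the members, genes starting in a span, sites within 1 kb of a member start, the 6 other sites of best mean rank per span, the 3 densest sites of each single library, the 5 most similar territories, and the 2 genes of the signalling list with most and the 2 with fewest peaks. Others were named after their values were seen, among them Lck and Zap70. So were the exon and second 3′ UTR sites of Cd3d and the Cd247 intron site at 65.2 kb. Members, lists and motifs were chosen with earlier results of these data known. Some items that these rules name are not reported here. The libraries form 1 group with n = 2, so no test was made. Software was pandas 2.3.3, numpy 2.4.6, matplotlib 3.10.9 and scipy 1.17.1 under Python 3.11.15, and interval counting was checked on simulated intervals. Alternatives were other flanks, lists, density limits, FDR limits, overlap rules and promoter widths, and leaving out each library.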

Additional observations from a re-analysis of the deposited data

How the results depend on the processing

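Each alternative was read by its mean over the libraries used, so a change of order between the libraries did not count. Over 9 results, 54 of 56 such means moved by less than 1 SD between the libraries or, for counts, by at most 1.5 times. The other 2 came from keeping the denser 50% of each list. Peaks in the Cd247 span then averaged 22, with 25 in replicate 1 and 19 in replicate 2, and the mean share of its peaks that were shared became 88.0%, with 76.0% and 100%. By construction this leaves out the less dense peaks of each library, among them the 20 of replicate 2 with a density below 0.25. Cd247 kept more peaks in replicate 2 with the shorter deposited list (28 and 37). It also had more there with lists of equal length (27 and 46), but that setting could not turn the order. Replicate 2, whose list was the shorter, kept its 46 peaks, and only replicate 1 lost any. With peaks below 0.25 left out, the order at Cd247 turned to 33 in replicate 1 and 26 in replicate 2, although the mean counted as unmoved. For shares, the SD came from 2 lists of unlike length. The tally of alternatives is therefore a description and no test of robustness. With only 1 library the values ran from 21 to 30 peaks, 76 to 110 footprints and 8667 to 13180 significant bases in the Cd3g, Cd3d and Cd3e span, and from 34 to 46, 114 to 131 and 13719 to 18672 in the Cd247 span; all 4 promoters were open in either. Shares of shared peaks need both libraries and have no such value. No paired analysis was possible because there is 1 group. Read depth is unknown, and its part in replicate 2's fewer calls was not tested; 2 animals give only a rough SD.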
